A study of Arabidopsis thaliana with 6 samples.

Results

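The tau class is a plant-specific branch of the glutathione transferases, and 10 of its genes were followed here in leaves 2 h after release of an intracellular immune receptor. They are GSTU1 to GSTU7, GSTU10, GSTU11 and GSTU24, taken by locus identifier from the 32678 genes of the count table. Polyadenylated RNA was sequenced from 3 libraries of wild-type Col-0 and 3 of 35S:RPS4, the Col-0 35S:RPS4-HS line, in which the constitutive 35S promoter drives the TIR-NBS-LRR receptor gene RPS4. All plants grew for 3.5 weeks at 28 °C, which holds the receptor back, and all had spent 2 h at 19 °C when leaves were frozen. The 35S:RPS4 group is 1 transgenic line, and libraries from before the move are not analysed here, so Col-0 after the same move is the only background for the temperature change. The labels do not say whether the libraries of a group came from separate plants, and the p-values given here therefore cover the spread from library to library, which may be technical.

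Glutathione transferases join the tripeptide glutathione to reactive or foreign molecules, and some also reduce peroxides. The products can then be pumped into the vacuole and broken down. Tau enzymes are best known in Arabidopsis for the handling of herbicides, explosives and oxidised lipids, and many tau genes are known to respond to stress or chemicals. The question put to the data was which of the 10 genes differed between the genotypes, and whether the rest of the glutathione system moved beside them.

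Of the 10 genes, GSTU11 was the single upregulated one, none was called downregulated, and 3 tested genes, GSTU1, GSTU5 and GSTU7, were not called. The other 6, GSTU2, GSTU3, GSTU4, GSTU6, GSTU10 and GSTU24, had too few counts to pass the filter on low counts, and values fitted without that filter are given for some of them. GSTU24 and GSTU4 were high in 35S:RPS4 replicate 2 and low in the remaining libraries. The call required, in edgeR, an absolute log2 fold change (log2FC, 35S:RPS4 minus Col-0) above 1 with a false discovery rate (FDR) below 0.01. By that rule 6.46% of the 18382 tested genes were upregulated and 1.37% downregulated, 7.83% together. With the same limits DESeq2 called 7.44% raised and 1.99% lowered, and limma voom 5.95% and 1.34%. At an unadjusted p below 0.05 in edgeR, 14.9% were higher and 13.1% lower.

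The libraries held 28659022 to 31007551 gene counts each. RPS4 itself (AT5G45250) had 668, 884 and 978 counts in Col-0 replicates 1 to 3 and 18033, 22372 and 24807 in 35S:RPS4 (log2FC 4.81, SE 0.22), so the overexpressed gene was high in every library labelled with it. Leaf markers were abundant in both groups. The 5 of them (RBCS1A, RCA, LHCB1.3, CA1 and PSBO1) summed to between 1476272 and 1705214 counts in every library, and none was called. Root markers summed to 1 to 3 counts per library, with COBL9 at 0 throughout, seed markers to 0 to 11, and flower markers to 14 to 26 in Col-0 and 6 to 13 in 35S:RPS4. In such bulk leaf samples, fewer cells of a type and less RNA per cell cannot be told apart.

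The sequence ahead of the genes is shown for the 4 on which the results turn: GSTU11 and its upregulated neighbour GSTU12, GSTU24 for its single high library, and GSTU5 as the most abundant of the 10. Each line gives the 300 bases before the annotated gene start in the RefSeq annotation of TAIR10.1, read 5′ to 3′ on the gene's own strand. Capitals mark TGACG, the core of the as-1 element bound by TGA factors, and TTGAC, the core of the W-box bound by WRKY factors, on either strand. Where the motifs overlap, as in TTGACG, the capitals run together.
GSTU11 (chr1:26338819-26339118, minus strand): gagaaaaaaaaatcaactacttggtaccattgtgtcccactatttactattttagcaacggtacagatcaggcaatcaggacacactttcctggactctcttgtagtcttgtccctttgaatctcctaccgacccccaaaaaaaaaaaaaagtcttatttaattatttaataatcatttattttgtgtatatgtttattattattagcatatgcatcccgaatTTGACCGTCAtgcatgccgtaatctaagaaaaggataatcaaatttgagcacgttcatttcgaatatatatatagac
GSTU12 (chr1:26335631-26335930, minus strand): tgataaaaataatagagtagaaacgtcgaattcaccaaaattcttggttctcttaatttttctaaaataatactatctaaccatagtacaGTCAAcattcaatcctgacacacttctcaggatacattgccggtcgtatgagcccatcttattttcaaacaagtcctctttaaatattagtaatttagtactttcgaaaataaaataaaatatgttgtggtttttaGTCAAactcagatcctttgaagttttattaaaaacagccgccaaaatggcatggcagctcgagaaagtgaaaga
GSTU24 (chr1:5869243-5869542, plus strand): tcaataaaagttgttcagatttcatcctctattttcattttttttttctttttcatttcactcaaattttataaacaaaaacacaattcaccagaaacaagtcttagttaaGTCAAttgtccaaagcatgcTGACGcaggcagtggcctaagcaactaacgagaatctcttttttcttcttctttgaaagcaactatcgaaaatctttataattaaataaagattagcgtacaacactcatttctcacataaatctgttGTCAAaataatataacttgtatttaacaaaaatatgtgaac
GSTU5 (chr2:12625791-12626090, minus strand): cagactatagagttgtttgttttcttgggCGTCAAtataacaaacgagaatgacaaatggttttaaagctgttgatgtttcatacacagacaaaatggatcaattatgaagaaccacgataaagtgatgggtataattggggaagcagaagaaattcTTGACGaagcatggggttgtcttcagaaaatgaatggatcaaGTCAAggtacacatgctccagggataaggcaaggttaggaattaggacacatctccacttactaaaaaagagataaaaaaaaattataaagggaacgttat

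A TGACG core stood in the window of 7 of the 10 genes and of 6 of the 18 other tau genes, against 21.0% of 30613 windows of the same length over all annotated genes. GSTU7 had 3 matches, within 61 bases of its start, GSTU1 and GSTU5 had 2, and GSTU3, GSTU6, GSTU11 and GSTU24 had 1 each. TTGAC stood in 8 of the 10 windows, against 50.1% of all. The core bound by CAMTA factors has 2 spellings, not capitalised here, of which CGTG stood in 8 of the 10 windows, against 50.2% of all, and CGCG in 0, against 12.1%. The G-box CACGTG, which contains CGTG, stood in 0, against 6.61%. In GSTU11 the motifs adjoined each other, with a TTGAC core 77 and a TGACG core, on the other strand, 72 bases before the start. GSTU12 had 2 TTGAC cores, at 210 and 74 bases, and no TGACG. GSTU1 to GSTU7 lie side by side and resemble each other, so their windows are not independent, and a match describes letters, not a bound site. GSTU7, which held the most TGACG cores, was not called, and neither was GSTU5.

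GSTU1 to GSTU7 form a tandem array of 14.6 kb on chromosome 2 (TAIR10.1, 12617936 to 12632538), all on the minus strand. Each has 2 exons. Coding sequences within the array were 62.8 to 85.6% identical, whereas any pair that included GSTU10, GSTU11 or GSTU24 reached 51.9 to 59.3%. The closest pair was GSTU1 and GSTU2. GSTU10 (28023627 to 28024860, minus strand), GSTU11 (26337481 to 26338818, minus strand) and GSTU24 (5869543 to 5870883, plus strand) lie apart on chromosome 1. None of the windows of 50 bases in the 10 spliced transcripts had an exact copy elsewhere in the genome, so reads of that length without mismatches could be told apart even within the array. The annotation places GSTU7 over 52 bases of AT2G29410, GSTU6 over 398 bases of AT2G29430 and GSTU10 over 279 bases of AT1G74580, each on the opposite strand, and GSTU10 over 21 bases of AT1G74600 on the same strand. It also places GSTU2 over 849 bases of AT2G29485 and GSTU7 over 636 bases of AT2G08340, both on the opposite strand and both without an entry in the table used here. The kit does not mark strand, so reads from any of these overlaps cannot be told apart by gene.

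**Figure D1:**
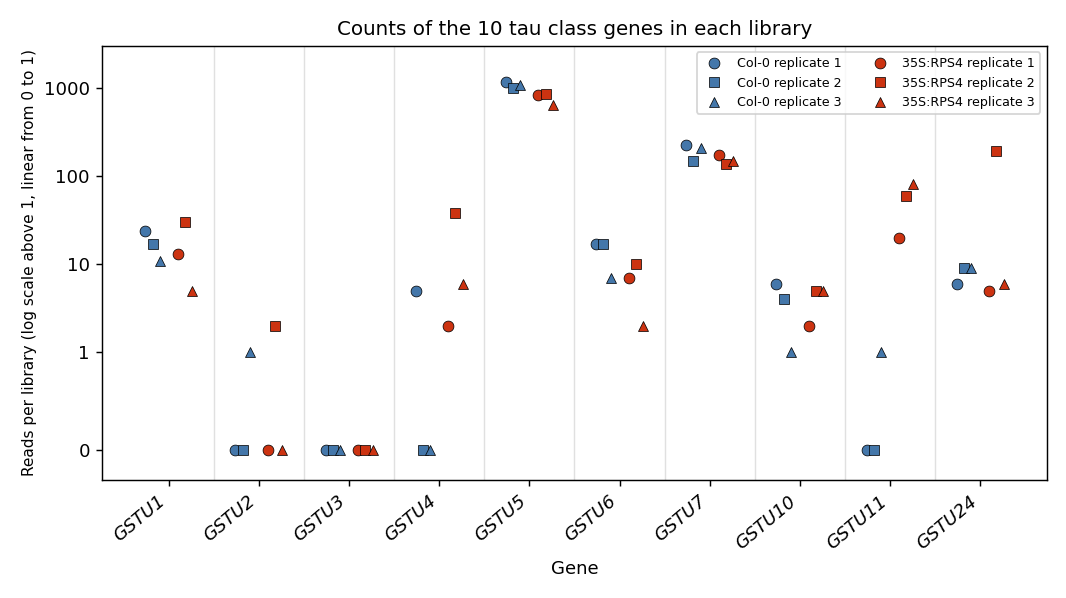
Reads in each of the 6 libraries for the 10 tau class genes, on an axis that is linear from 0 to 1 and logarithmic above. Blue points are Col-0, red points 35S:RPS4, and the shape gives the replicate. GSTU11 is at 0 or 1 in Col-0 and at 20 to 81 in 35S:RPS4, and GSTU24 stands at 193 in 35S:RPS4 replicate 2.

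GSTU11 (AT1G69930) went from near absence to a low level. It had 0, 0 and 1 counts in Col-0 replicates 1 to 3, and 20, 60 and 81 counts in 35S:RPS4. The groups did not overlap, as in 34.2% of all tested genes (17.9% with 35S:RPS4 higher), and 35S:RPS4 replicate 1 was the lowest of its group. With 1 count against 161, the pooled ratio was 174, with a 95% counting interval of 30.8 to 6912. Scaled by library size (CPM, counts of the gene per 1000000 counts of the library), Col-0 averaged 0.0103 ± 0.0178 (SD, n = 3) and 35S:RPS4 1.89 ± 1.15. The fitted log2FC of 6.99 (SE 1.002, FDR 0.00282 by edgeR) depends on the prior count that edgeR adds. GSTU11 passed the filter on low counts through the 35S:RPS4 libraries alone, so among tested genes it was bound to differ. Its FDR by edgeR was 0.0128 without 35S:RPS4 replicate 2, and 0.0130, 0.0191 and 0.0302 without Col-0 replicates 1, 2 and 3, so the call was lost in each of these fits. By the same test it was 9.44e-05 without 35S:RPS4 replicate 1.

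The gene next to GSTU11 showed the same pattern. GSTU12 (AT1G69920) is a tau gene outside the 10, on the same strand and 1850 bases from GSTU11, with no annotated gene between them. It had 0 counts in every Col-0 library and 29, 60 and 46 in 35S:RPS4. Against a floor of 3 counts over the Col-0 group it was at least 48.6-fold higher (FDR 0.00192 by edgeR). Like GSTU11, it passed the filter through the 35S:RPS4 libraries alone, so among tested genes it was bound to differ. That call was lost without 35S:RPS4 replicate 2 (FDR 0.0101 by edgeR) or replicate 3 (FDR 0.0110 by edgeR). The coding sequences of this pair were 57.6% identical and shared no exact window of 50 bases.

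GSTU5 (AT2G29450), known as an auxin-responsive gene, was by far the most abundant of the 10. It had 1157, 1009 and 1087 counts in Col-0 and 829, 853 and 643 in 35S:RPS4, so that each 35S:RPS4 library lay below each Col-0 library. A separation with 35S:RPS4 lower was found in 16.3% of all tested genes. Col-0 averaged 34.7 ± 1.67 CPM and 35S:RPS4 averaged 26.7 ± 2.86 CPM (SD, n = 3 each). The log2FC of -0.38 (SE 0.10, FDR 0.0355 by edgeR) did not pass the call. With the replicate number as a block the FDR by edgeR was 0.00816, but the fold threshold was still not met. With each library left out the FDR by edgeR was 0.0378 to 0.102, and below 0.05 only without 35S:RPS4 replicate 1.

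GSTU7 (AT2G29420) had 227, 149 and 207 counts in Col-0 and 175, 139 and 148 in 35S:RPS4. The groups overlapped. Its log2FC was -0.22 (SE 0.16, FDR 0.461 by edgeR), between means of 6.20 ± 1.10 CPM for Col-0 and 5.33 ± 0.581 CPM for 35S:RPS4 (SD, n = 3 each).

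GSTU1 (AT2G29490) had 24, 17 and 11 counts in Col-0 and 13, 30 and 5 in 35S:RPS4, with 35S:RPS4 replicates 2 and 3 beyond the Col-0 range on either side. The log2FC was -0.02 with a wide error (SE 0.59, FDR 0.990 by edgeR). The sign changed with the libraries used, from -0.82 without 35S:RPS4 replicate 2 to 0.38 without 35S:RPS4 replicate 3.

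The remaining members of the array were scarce. GSTU6 (AT2G29440) had 17, 17 and 7 counts in Col-0 and 7, 10 and 2 in 35S:RPS4, overlapping groups. GSTU2 (AT2G29480) had 1 count over the Col-0 group and 2 over 35S:RPS4. GSTU3 (AT2G29470) had 0 counts in all 6 libraries, which allows up to 3 counts over each group, or 0.0320 CPM for Col-0 and 0.0346 CPM for 35S:RPS4. Outside the array, GSTU10 (AT1G74590) had 6, 4 and 1 counts in Col-0 and 2, 5 and 5 in 35S:RPS4. No difference was detectable at this depth in GSTU2, GSTU3 and GSTU10. In the fit without a filter on low counts, edgeR gave GSTU6 an FDR of 0.40.

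**Figure D2:**
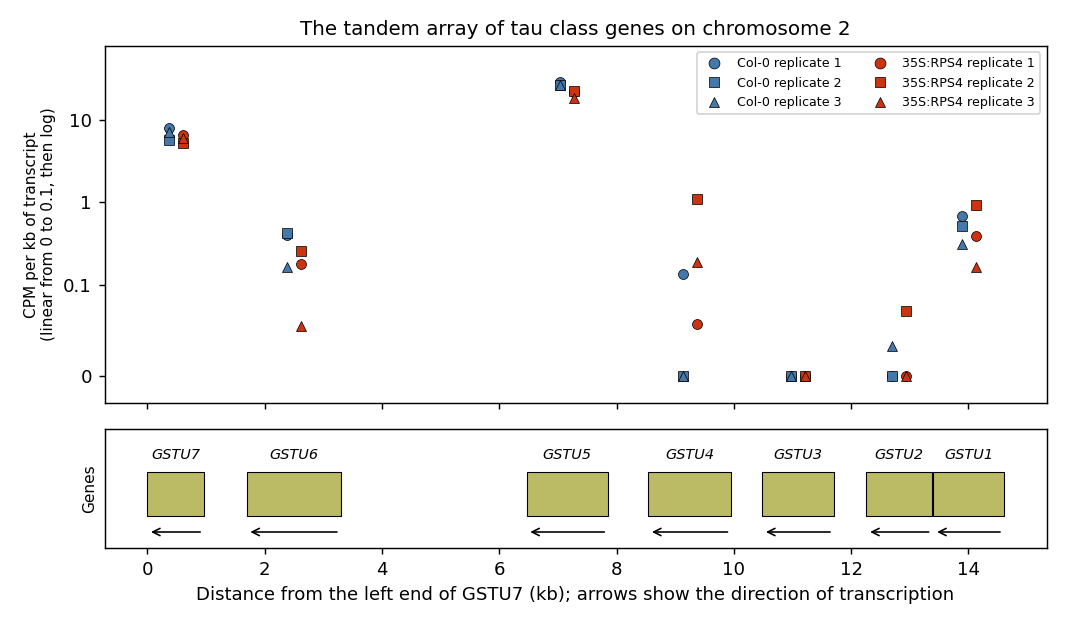
The upper panel gives CPM per kilobase of spliced transcript in each library for GSTU7 to GSTU1 (linear from 0 to 0.1, logarithmic above), and the lower panel their places along 14.6 kb with arrows for the direction of transcription. GSTU5 lies highest in both groups and GSTU3 at 0 in all libraries.

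Levels differed more between the genes than between the genotypes. Per kilobase of transcript, GSTU5 stood at 26.4 to 28.9 CPM in Col-0 and at 18.5 to 22.8 CPM in 35S:RPS4. GSTU7 followed at 5.66 to 8.11 and 5.31 to 6.62 CPM per kilobase. Both steps in this order, from GSTU5 to GSTU7 and from GSTU7 to GSTU1 at 0.307 to 0.688 CPM per kilobase, were clear of overlap in Col-0. Below GSTU1 the Col-0 order ran GSTU6, GSTU24, GSTU10, GSTU4, GSTU2, GSTU11 and GSTU3, and each neighbour in it overlapped the next. In 35S:RPS4, GSTU11 reached 0.617 to 2.72 CPM per kilobase, which overlapped GSTU1 at 0.165 to 0.921, so GSTU11 moved from the lower end of the order to the level of the middle genes. GSTU24 and GSTU7 overlapped there through 1 library of GSTU24. The 10 genes summed to 40.6 to 45.7 CPM per Col-0 library and 32.7 to 45.1 CPM per 35S:RPS4 library. GSTU5 gave 80.2 to 83.7% of their counts in Col-0, but 64.1% in 35S:RPS4 replicate 2 against 78.7 and 71.8% in replicates 1 and 3. The 10 made 3.97 to 8.91% of the CPM of all 28 tau genes, most of the remainder being GSTU19 and GSTU20.

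35S:RPS4 replicate 2 stood apart for GSTU24 and GSTU4. GSTU24 (AT1G17170), for an enzyme that conjugates the explosive trinitrotoluene, had 6, 9 and 9 counts in Col-0, and 5, 193 and 6 in 35S:RPS4. Replicate 2 was thus 21.6-fold above the highest other library in CPM, whereas replicates 1 and 3 held 11 counts together against 24 over the Col-0 group. The mean of 2.31 ± 3.67 CPM (SD, n = 3) in 35S:RPS4, against 0.257 ± 0.0594 CPM in Col-0, therefore rests on a single library. In the fit without a filter on low counts the log2FC was 3.15 (SE 1.71, FDR 0.403 by edgeR).

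GSTU4 (AT2G29460), in the array, had 5, 0 and 0 counts in Col-0 and 2, 38 and 6 in 35S:RPS4. Replicate 2 was 5.88-fold above the highest other library. Without a filter on low counts its log2FC was 3.21 (SE 1.45, FDR 0.269 by edgeR). Its neighbours in the array did not stand out to that degree, although replicate 2 also held the highest GSTU1 count, 30, and the highest GSTU2 count, 2.

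Some genes known to respond to foreign chemicals and oxidised lipids, among others, were high in the same library. Across the whole table, 32 genes had at least 20 counts and at least 5-fold more CPM in 35S:RPS4 replicate 2 than in either other library of its group, a rule set after the values were seen. The same rule gave 0 to 10 genes for each of the other 5 libraries. Among the 32 were GSTU24, GSTU4 and 4 of 11 genes on the list of xenobiotic response genes. The rest of the 32, which are most of them, are on none of the lists followed here. CYP81D11, a cytochrome P450, had 35 counts there against 0 to 2 elsewhere. The glucosyltransferase genes UGT74E2 and UGT73B4 had 89 against 0 to 5 and 56 against 0 to 6. For UGT73B4 the other 35S:RPS4 libraries, at 6 and 3 counts, also lay above Col-0, at 0, 0 and 1. The fourth was DTX3, for a transporter of the MATE family, with 22 counts against 4 to 11. GSTU25, the neighbour of GSTU24 and 79.4% identical to it in coding sequence, had 11 counts there and 0 or 1 elsewhere, under the minimum of the rule. What sets this library apart was not tested.

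**Figure D3:**
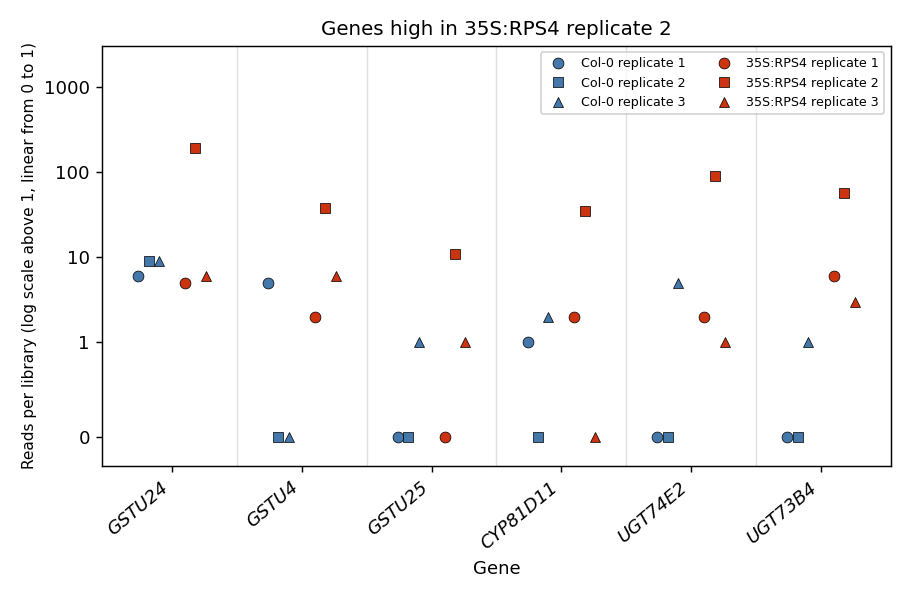
Reads per library for GSTU24, GSTU4, GSTU25 and 3 xenobiotic response genes, on an axis linear from 0 to 1 and logarithmic above. The red square, 35S:RPS4 replicate 2, lies above the other 5 libraries for every gene shown, at 11 to 193 counts. The genes were picked because that library was high in them, and DTX3 is not shown.

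The rest of the tau class was mostly not called. Of the 18 other tau genes, 11 were tested, 2 rose, GSTU12 and GSTU13, and 1 fell, GSTU27 (median log2FC 0.19, against 0.01 over all tested genes). Over all tested genes 6.46% rose and 1.37% fell. GSTU12 was tested through the 35S:RPS4 libraries alone, so the count of rises and the median are biased upwards. GSTU13 (AT1G27130), which acts in the indole glucosinolate pathway, had 1255, 1501 and 1673 counts in Col-0 and 3358, 4279 and 4457 in 35S:RPS4 (log2FC 1.57, SE 0.16, FDR 0.000632 by edgeR). GSTU27 (AT3G43800) fell from 982, 1123 and 1059 counts to 495, 479 and 434, a log2FC of -1.06 with an SE of 0.09 and, by edgeR, an FDR of 0.000264. Without Col-0 replicate 2 it lay just short of the fold threshold (-0.97). Of the 4 tested genes among the 10, 1 rose and 0 fell in edgeR, with a median of -0.12. At an unadjusted p below 0.05, 1 of the 4 was higher and 1, GSTU5, lower, against 14.9% and 13.1% of all tested genes. DESeq2 and limma voom also called 1 raised and 0 lowered. The gene that rose, GSTU11, was tested through the 35S:RPS4 libraries alone, so these counts of rises and the median are biased upwards.

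**Figure D4:**
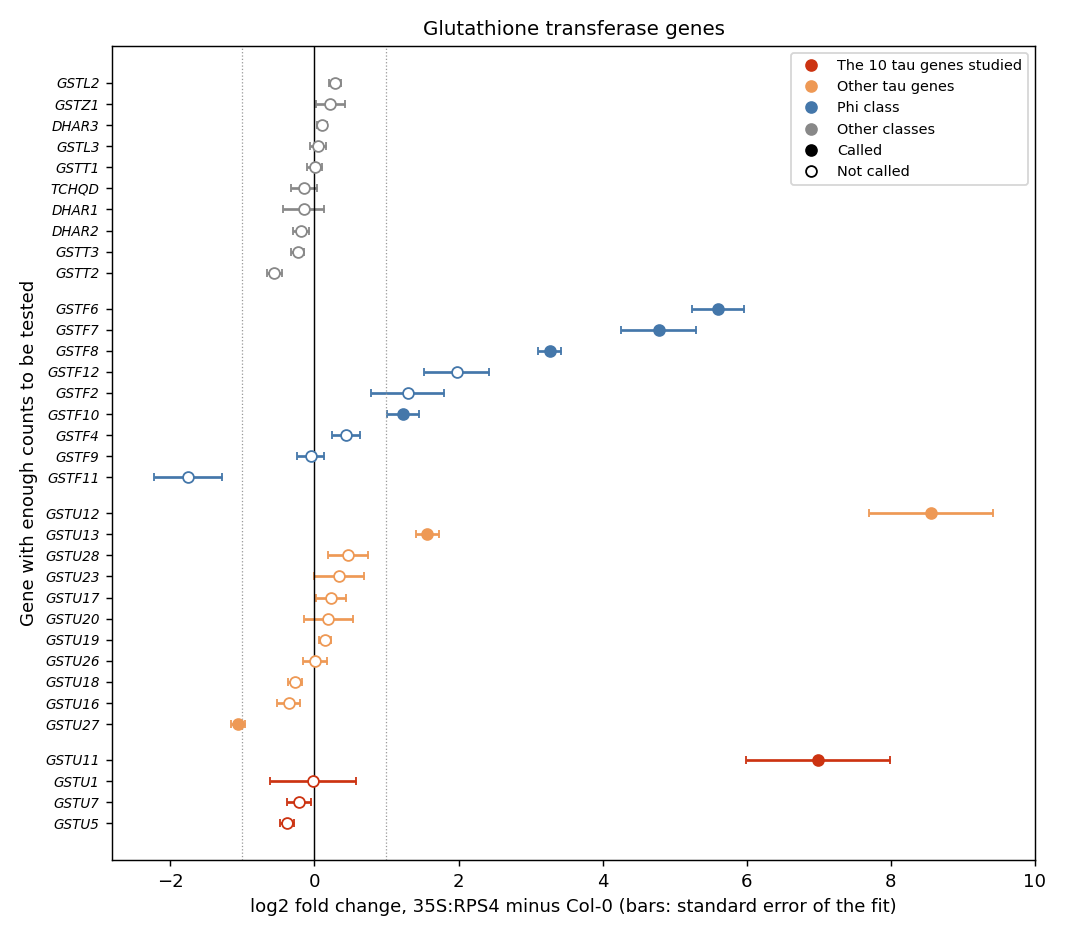
Log2FC (35S:RPS4 minus Col-0) with the standard error of the edgeR fit for every tested glutathione transferase gene, grouped by class. Filled points were called, and dotted lines mark the fold threshold. GSTU11 and GSTU12 lie far to the right, but their fitted values rest on 1 and 0 Col-0 counts and on the prior count. Most other tau genes lie near 0, and 4 phi genes are called above it.

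Upregulation was seen in the phi class, a further plant branch of the family. Of 13 phi genes, 9 were tested, 4 rose and 0 fell in edgeR, against 6.46% and 1.37% of all tested genes. The median log2FC of the 9 was 1.295, against 0.01 over all tested genes. At an unadjusted p below 0.05, 6 were higher and 1 lower, against 14.9% and 13.1% of all tested genes. DESeq2 called 5 raised and 1 lowered, and limma voom 4 and 0. GSTF12 was among the 6 and passed the filter through the 35S:RPS4 libraries, where it was high. The count of 6 and the median are therefore biased upwards. GSTF6 (AT1G02930), which acts in camalexin synthesis, had 116, 168 and 176 counts in Col-0 and 4204, 8887 and 7584 in 35S:RPS4, a log2FC of 5.61 (SE 0.36). Its neighbour GSTF7 (AT1G02920) had a log2FC of 4.78 (SE 0.52). The pair shared exact sequence, in 9.41% of the 50-base windows of GSTF6 and 9.19% of those of GSTF7. Reads with more than 1 alignment were set aside, so reads from that sequence may be missing from both counts. GSTF7 missed the FDR threshold without a filter on low counts (FDR 0.0106 by edgeR). GSTF8 (AT2G47730), a well-known stress reporter gene, had 1474, 1557 and 1722 counts in Col-0 and 11134, 15734 and 15204 in 35S:RPS4 (log2FC 3.26, SE 0.17). GSTF10 (AT2G30870) passed narrowly, at 1.23 with an FDR of 0.00961 by edgeR, and missed the FDR threshold without Col-0 replicate 2 or 3 and without 35S:RPS4 replicate 2 or 3 (1.34, 1.33, 1.19 and 1.10), without a filter on low counts (1.23) and with plain library-size scaling (1.06). The difference between the tau and the phi class was not tested.

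Of the 12 genes of other classes (zeta, lambda, theta, dehydroascorbate reductases and TCHQD), 10 were tested and 0 were called by edgeR, DESeq2 or limma voom. At an unadjusted p below 0.05, 1 was higher and 2 were lower, against 14.9% and 13.1% of all tested genes. GSTL1, of the lambda class, did not pass the filter, with 0 counts in each Col-0 library and 10, 32 and 20 in 35S:RPS4, at least 22.3-fold higher against the floor of 3 counts over the Col-0 group. It was called by edgeR without a filter on low counts (FDR 0.00281), without 35S:RPS4 replicate 1 (FDR 0.00289) and without both replicate 1 libraries (FDR 0.00068). In the fits with libraries left out, GSTL1 passed the filter through the 35S:RPS4 libraries alone, so it was bound to differ there. The smallest FDR belonged to GSTT2 (log2FC -0.55, FDR 0.0104 by edgeR), followed by GSTL2 (0.29), GSTT3 (-0.23) and DHAR2 (-0.18). At an unadjusted p below 0.05, 2 of the 4 genes that make or regenerate glutathione were higher, against 14.9% of all tested genes. All 4 were tested, and 0 were called by any of the 3 tools. Their log2FC was 0.42 for GR1, 0.20 for GSH1, the entry enzyme of glutathione synthesis, 0.28 for GSH2 and 0.11 for GR2, which turned negative with upper-quartile and plain library-size scaling.

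Of the genes that handle glutathione conjugates after their formation, 2 of 6 tested were upregulated and 0 downregulated. Over all tested genes the shares were 6.46% and 1.37%, so 0 downregulated of 6 is near the common rate. The median log2FC was 0.31, against 0.01 over all tested genes. DESeq2 and limma voom also called 0 lowered. At an unadjusted p below 0.05, 0 were lower, against 13.1% of all tested genes. ABCC3 (AT3G13080), which codes for a vacuolar conjugate pump, had 759, 579 and 722 counts in Col-0 and 9237, 11325 and 10142 in 35S:RPS4 (log2FC 4.01, SE 0.13, FDR 5.44e-06 by edgeR). GGT1 (AT4G39640), for a transpeptidase that breaks glutathione and its conjugates down outside the cell, rose by 2.89. ABCC4 (0.52) and GGT4 (-0.36) were not called.

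On the xenobiotic response list, 3 of 7 tested genes rose and 0 fell (median log2FC 2.83). Over all tested genes 6.46% rose and 1.37% fell. With DESeq2, with limma voom or at an unadjusted p below 0.05, 0 were lower. DTX1 and UGT73B3 passed the filter through the 35S:RPS4 libraries, where they were high, so the median is biased upwards. Unlike GSTU24, the 3 called genes were higher in each 35S:RPS4 library than in each Col-0 library, as were 5 of the 7 in all. That separation was found in 17.9% of all tested genes, and a call favours it. DTX4 (AT2G04070), a MATE transporter gene, had 13, 12 and 19 counts in Col-0 and 221, 346 and 362 in 35S:RPS4 (log2FC 4.51, SE 0.29, FDR 7.83e-05 by edgeR). OPR1 (AT1G76680), for a reductase of oxidised lipids, rose by 3.05, and the glucosyltransferase gene UGT73B5 (AT2G15480) by 2.83, though the latter was not called without Col-0 replicate 2 (2.76, FDR 0.0142 by edgeR). DTX1, with 26, 145 and 56 counts in 35S:RPS4 against 5, 4 and 8, reached a log2FC of 3.82 but, by edgeR, an FDR of 0.0134. Its Col-0 counts lay below the level of the filter, so it too was tested through the 35S:RPS4 libraries alone. The call was made by DESeq2 (3.85), by edgeR with the replicate number as a block, at 3.66 (FDR 0.000918), and without 35S:RPS4 replicate 1, at 4.23.

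In all 12 genes called upregulated, GSTU11 and the 11 of the other lists, 35S:RPS4 replicate 1 was the lowest library of its group. That order held in 94.5% of the 1188 upregulated genes of the whole table, and the RPS4 transcript was lowest in replicate 1 too, at 605 CPM against 759 and 907. The part of this library in the results was not tested.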

How the data were processed

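The authors counted reads per gene and deposited these raw counts without normalization. The submitters' processing notes name TAIR10, FastQC 0.11.2, TopHat2 2.0.10 and HTSeq, with no settings. Summary entries that name no gene (6.45 to 8.30% of all counts, mostly reads with more than 1 alignment) were set aside, and reads that HTSeq could not assign to 1 gene are thus absent. Of 32678 genes, 31912 matched RefSeq TAIR10.1, which supplied positions, lengths and sequences. TAIR10.1 keeps the nuclear chromosomes of TAIR10, but its gene models may differ from those counted.

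All genes were fitted together in edgeR 4.0.16 (R 4.3.3) with genotype as the sole term, after edgeR's default filter on low counts and TMM scaling, by the robust quasi-likelihood test. P-values were two-sided and adjusted over all tested genes (Benjamini-Hochberg). CPM used TMM-scaled library sizes. Intervals of pooled ratios (exact, scipy 1.17.1) and floors of 3 counts cover counting error only. Coding sequences were aligned with biopython 1.88. The fit was tested on simulated data. DESeq2 1.42.0, limma 3.58.1 (voom), other scalings, filters and thresholds, each library left out and the replicate number as a block were alternatives. Deviations from the group means of libraries that carry the same replicate number correlated at 0.43, 0.13 and 0.28 (numbers 1 to 3) and those of other pairs at -0.36 to 0.16. Each same-numbered value was over 0.1, but 2 other pairs, at 0.13 and 0.16, came near or passed the value of number 2. Whether the numbers pair libraries is therefore uncertain. The main fit did not use them, and all calls given without a named setting are unpaired.

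The members and lists were chosen with earlier results of these data known. Named genes are RPS4, the 10 members, called tau and phi genes, and up to 4 genes with the smallest FDR on each other list. GSTU25, CYP81D11, UGT74E2, UGT73B3, UGT73B4, DTX3 and GSTL1 were named after their values were seen. So were the tau genes GSTU19 and GSTU20 and the phi genes GSTF11 and GSTF12.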

Additional observations from a re-analysis of the deposited data

How the results depend on the processing

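The upregulation of GSTU11 kept its direction in every fit that tested it, but its call did not. In the filtered fits GSTU11 entered through the 35S:RPS4 libraries alone, so its direction there was bound to hold and is no support. Upregulated genes among the 10 numbered 1, and 0 with a filter of CPM above 1 in 3 libraries, which removes GSTU11, and 0 to 1 with each library left out. Downregulated genes among them numbered 0, and 1, GSTU5, at an FDR below 0.05 without a fold threshold. Over all genes, 1188 rose, and 1934 with that threshold. The 251 falls became 1150 with that threshold, 377 with plain library size, 391 with upper-quartile scaling, 404 without both replicate 1 libraries, and 99 to 337 with each library left out. These scalings moved the median of all genes by -0.17 and -0.18. The 1 fall on the other lists, GSTU27, became 2 with DESeq2, 2 with the replicate block and 2 without both replicate 1 libraries, joined each time by GSTF11, 3 with the FDR below 0.05 alone, joined by GSTF11 and GSTT2, and 0 to 1 with each library left out. The log2FC of GSTU1, -0.02, fell to -0.82 without 35S:RPS4 replicate 2 and turned to 0.12 and 0.38 without 35S:RPS4 replicates 1 and 3, to 0.27 and 0.0094 without Col-0 replicates 1 and 2, and to 0.41 without both replicate 1 libraries. GR2 turned to -0.052 with plain library size and -0.066 with upper-quartile scaling. The cause was not tested. The fit with the replicate block raised 1329 genes and lowered 330, with GSTU11 at 7.01. Beside GSTF11 (-1.78) and DTX1, it changed no call of a gene named here. Depth limits 6 of the 10 genes, which failed the filter on low counts. Without it GSTU2, GSTU4, GSTU6, GSTU10 and GSTU24 could be fitted and none was called, and GSTU6 also passed in 4 fits with a library left out, uncalled, at -1.47 to -0.61.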
